A study of Homo sapiens with 36 samples.

Results

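Genes known as regulators or products of the adrenergic state of neuroblastoma were followed here through maps of methylated adenosines. They are 8 genes: the transcription factor genes HAND2, PHOX2A, GATA2, GATA3 and ISL1, the receptor tyrosine kinase genes RET and ALK, and DBH. They were taken by gene name, and every listed site of each was used. Of these 8 genes, 7 had at least 1 listed site among the 9343 genes named in the deposited tables, and ALK was not listed in any. The members held 240 of 21031 sites in BE(2)-C cells with ATRA, 188 of 22855 sites in BE(2)-C cells without ATRA and 20 of 57011 sites in HEK293T cells. Together these were 322 distinct positions, of which 109 were listed both with and without ATRA.

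Sites were mapped by m6ACE, which crosslinks an antibody to N6-methyladenosine and digests the RNA up to it, so that each methylated adenosine is placed to the base. The tested cells received a small interfering RNA against Pcif1 (siPcif1) for 24 hours, and the control cells a scrambled one (siScram). BE(2)-C is a human neuroblastoma cell line, used with all-trans retinoic acid (ATRA, 10 uM for 4 days, an agent that makes these cells differentiate) or without it. The table of the untreated BE(2)-C cells carries the name of DMSO, a vehicle that the labels do not mention. HEK293T is a human embryonic kidney line, and both lines are labelled as wild type. The labels give HEK293T the culture and treatment text of BE(2)-C and also call it neuroblastoma. Each line and condition had 3 siPcif1 and 3 siScram m6ACE libraries, and the tables hold no column for the 18 input libraries. The measure was the relative methylation level (RML), a ratio given for each m6ACE library. How it was calculated is not described in the labels or headers, so an RML is compared below mainly between siPcif1 and siScram at the same site. The tables of the 2 lines and of the 2 BE(2)-C conditions were made separately, so levels in different tables stand side by side with no test. Nothing in the labels tells whether the replicates came from separate cultures, and p-values therefore measure only the spread between these libraries, which may be technical.

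Adrenergic neuroblastoma cells resemble sympathetic neuroblasts, and their identity is held by a circuit of transcription factors that bind each other's regulatory regions. HAND2, PHOX2A, GATA2, GATA3 and ISL1 act in this circuit and in the normal development of sympathetic neurons, and DBH encodes dopamine beta-hydroxylase, which converts dopamine to noradrenaline. The antibody reads m6A inside the transcript, which METTL3 writes mostly at DRACH motifs, and also m6Am, a cap-adjacent mark that PCIF1 writes when the transcript starts with an adenosine. A siPcif1 effect on m6Am would therefore be looked for at the first base of a transcript.

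The labels of the lines were set against the genes listed in the tables. Of 12 adrenergic marker genes, 10 had listed sites in BE(2)-C with ATRA, 11 without ATRA and 3 in HEK293T, whereas of 10 mesenchymal marker genes 1, 1 and 4 were listed, in the same order. A gene can be unlisted for low expression or for low methylation, and these cannot be told apart. The median RML of a library ranged over 2.36 to 4.16 with ATRA, 1.51 to 3.29 without ATRA and 1.80 to 2.22 in HEK293T. Without ATRA the median RML was 1.51, 1.87 and 1.71 in the siPcif1 libraries and 1.82, 2.76 and 3.29 in the siScram libraries, so that siScram replicate 1 lay near the siPcif1 libraries. With ATRA it was 4.16, 3.43 and 2.76 in siPcif1 and 2.36, 4.04 and 2.70 in siScram.

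Of the members, 6 had a listed site at an annotated transcript start, here called the start site. It was defined, after the values were seen, as a 5'UTR site within 15 nt of a RefSeq start. The 30 bases around each are shown because the capped end is where PCIF1 acts. They are taken from the RefSeq promoter table of GRCh38.p14, written 5′ to 3′ on the strand of the gene, with the 5-base motif that the authors' deposited table gives in capitals and the methylated adenosine in its middle.

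HAND2 (chr4:173530214-173530243, minus strand): ggccctaaagatGTAGCtgtacatggagat
PHOX2A (chr11:72244161-72244190, minus strand): gccgggctggctGCACTtgcgttgcacccg
GATA2 (chr3:128493185-128493214, minus strand): gcggccggtgggGGAGAgagaggcagcgtg
GATA3 (chr10:8054662-8054691, plus strand): agttgcgtcgcgCCACAgctgtctgcgaac
RET (chr10:43077055-43077084, plus strand): gcttacctcgctTCAGTcccgcgaccgaag
DBH (chr9:133636349-133636378, plus strand): ggaccagagagcTCACCccagccatgcccg

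In 4 of these, HAND2, PHOX2A, RET and DBH, the methylated adenosine was the annotated first base itself. In GATA2 it lay 1 nt inside the transcript. In GATA3 it lay 12 nt upstream of an internal RefSeq start at chr10:8054688, within a gene annotated from 8045333 to 8075198. The base before the adenosine was C in 4 of the 6, whereas over all start sites it was C in 71.8% of 850 sites with ATRA and in 68.5% of 852 sites without ATRA. None of the 6 motifs fits DRACH, in which the adenosine is preceded by A or G, that base by A, G or T, and the adenosine is followed by C and then A, C or T.

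The start sites of all 6 members had a lower mean RML in siPcif1 than in siScram cells wherever they were listed. This made 11 of 11 listings over the tables. Of the start sites of all genes, 65.6% were lower in siPcif1 on the log2 scale with ATRA, 94.1% without ATRA and 91.0% in HEK293T. In 10 of the 11 member listings the gene had other listed sites. The start site had the highest mean RML of its gene in all 10, and in 6 of the 10 it was the highest site in every library. How often this held in other genes was not counted. High RMLs were general at start sites. Their median in siScram cells was 12.2 with ATRA and 10.4 without, against 3.13 and 2.70 over all sites. The siPcif1 and siScram libraries did not overlap at 2 of 5 start sites with ATRA, at 1 of 5 without ATRA and at the 1 in HEK293T, where 12.1%, 41.3% and 35.3% of all start sites did so in the lower direction. Of the 11 changes, that of DBH without ATRA passed the test across all sites, and the other 10 did not. This DBH listing is one of those that met the listing rule only through siScram, so its call is no independent support for a lower siPcif1 value.

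**Figure D1:**
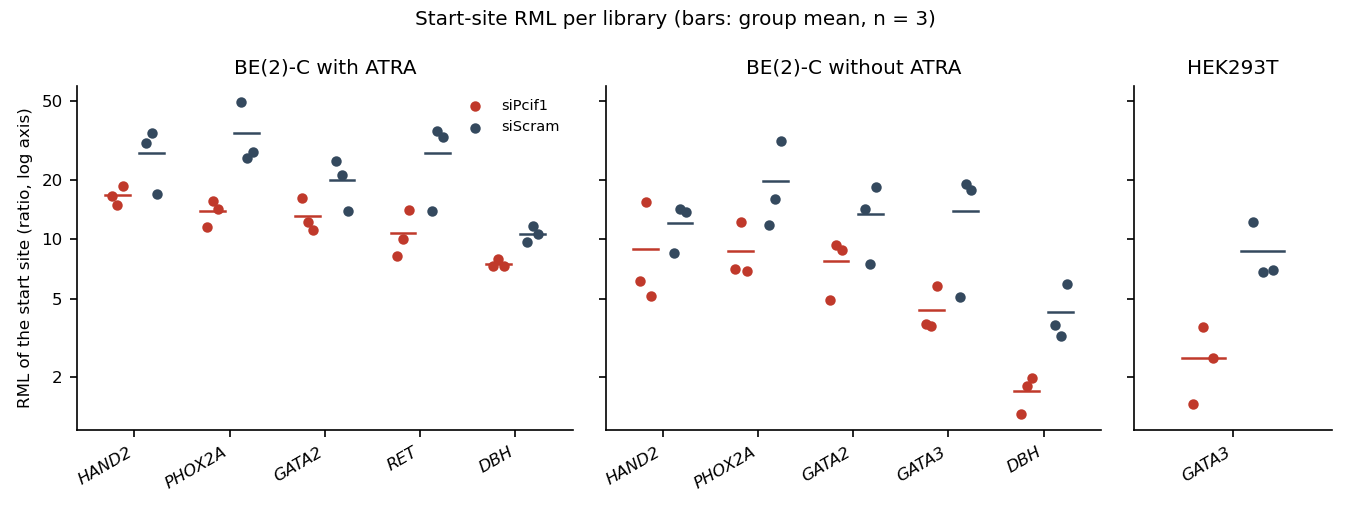
RML (a ratio, log axis) at the start site of each member, with siPcif1 libraries left of siScram libraries in each pair. Points are single libraries and bars their means (n = 3). In all 11 listings the siPcif1 mean lies below the siScram mean.

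HAND2 encodes a basic helix-loop-helix factor required for sympathetic neuron differentiation, and its gene lies at chr4:173526091-173530229 on the minus strand. At its start site the RML with ATRA was 16.6, 14.9 and 18.5 in siPcif1 libraries, against 30.5, 34.4 and 16.9 in siScram libraries. Of the siScram libraries, replicates 1 and 2 stood well above all others, and replicate 3 lay within the siPcif1 range. Without ATRA the RML was 6.15, 15.4 and 5.18 in siPcif1 and 8.50, 14.1 and 13.7 in siScram libraries, and the highest value of all belonged to a siPcif1 library. The change, on the log2 scale after adding the 5th percentile of the table's values and given throughout as siPcif1 minus siScram, was -0.63 with ATRA and -0.54 without. The authors' deposited table gives log2 fold changes the other way round, as siScram over siPcif1, with 0.7 and 0.4 for these 2 listings. Neither passed the limma test across all sites (adjusted p = 0.99997 and 0.402). After centring each library on its median the change without ATRA was -0.06, and it was -1.002 without siPcif1 replicate 2 and -0.26 without siPcif1 replicate 3.

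PHOX2A encodes a paired-type homeodomain factor that drives noradrenergic enzyme genes, at chr11:72239077-72244176. At its start site the RML with ATRA was 11.5, 15.6 and 14.3 in siPcif1 libraries, against 49.5, 25.6 and 27.6 in siScram libraries, and the groups did not overlap. This was a change of -1.21 (unadjusted p = 0.0149, adjusted p = 0.99997 by limma). Without ATRA the site was the only one listed in the gene and had 7.04, 12.3 and 6.87 in siPcif1 and 11.8, 15.9 and 31.3 in siScram libraries. The groups overlapped by 1 library, with a change of -1.06 (limma adjusted p = 0.185), which was -0.58 after centring and -0.67 without siScram replicate 3. The remaining 4 PHOX2A sites were listed with ATRA, lay between 2912 and 4484 nt from the start, and had mean RMLs of 0.522 to 1.08 in siPcif1 and 0.744 to 1.70 in siScram cells.

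GATA2 and GATA3 encode zinc finger factors that act in both sympathetic and blood cell development. The GATA2 gene lies at chr3:128479422-128493201, and its start site had an RML with ATRA of 16.04, 12.3 and 11.1 in siPcif1 and 24.8, 21.1 and 13.8 in siScram libraries. Without ATRA it had 4.95, 9.37 and 8.84 in siPcif1 and 14.1, 7.47 and 18.4 in siScram libraries. The groups overlapped in both conditions, with changes of -0.55 and -0.71 (limma adjusted p = 0.99997 and 0.300). That without ATRA was -0.23 after centring, -0.44 without siPcif1 replicate 1 and -0.44 without siScram replicate 3.

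The GATA3 start site was listed in BE(2)-C without ATRA and in HEK293T, in both through siScram only. Without ATRA it had an RML of 3.71, 3.62 and 5.80 in siPcif1 and 5.12, 18.9 and 17.7 in siScram libraries, and the lowest siScram library, replicate 1, lay within the siPcif1 range. In HEK293T it had 1.47, 3.59 and 2.50 in siPcif1 and 12.2, 6.83 and 7.01 in siScram libraries, with no overlap. The changes were -1.40 and -1.70 (limma adjusted p = 0.0545 and 0.206). Without siScram replicate 1 the change without ATRA was -1.98 (limma adjusted p = 0.00597), in a setting where 53.3% of all sites were called lower. With all libraries and the replicate number as a block it passed too (limma adjusted p = 0.00924). After centring the change was -0.91.

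RET is the receptor tyrosine kinase for ligands of the GDNF family, known to be induced by retinoic acid in neuroblastoma lines, and its gene lies at chr10:43077069-43130351. Its start site was listed with ATRA, through siScram only, and not without it. The RML was 8.18, 10.0 and 14.03 in siPcif1 and 13.9, 35.0 and 32.9 in siScram libraries, and the groups overlapped by a narrow margin at siScram replicate 1. The change was -1.20 (unadjusted p = 0.0126, adjusted p = 0.99997 by limma).

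DBH lies at chr9:133636363-133659329. With ATRA its start site had an RML of 7.33, 7.93 and 7.30 in siPcif1, against 9.62, 11.7 and 10.6 in siScram libraries. Without ATRA it had 1.30, 1.81 and 1.99 in siPcif1, against 3.67, 3.25 and 5.91 in siScram libraries. The groups did not overlap in either condition. The change with ATRA was -0.45 (limma adjusted p = 0.99997) and that without ATRA -1.09 ± 0.34 (SE, n = 3 each, limma adjusted p = 0.0458). The call without ATRA did not hold after centring each library on its median (change -0.61, adjusted p = 0.222), and leaving out any 1 library other than siScram replicate 1 ended it too. Without ATRA the site was listed through siScram only (the authors' DESeq2 p = 0.0291 in siScram and 0.221 in siPcif1). That by itself favours a lower siPcif1 value. With ATRA a further DBH 5'UTR site lay 29 nt upstream of the start site. It had 9.13, 8.18 and 8.13 in siPcif1 and 9.16, 6.30 and 7.19 in siScram libraries, a change of 0.16 that did not pass the test. The 2 sites of the DBH 5'UTR thus had changes of opposite sign with ATRA.

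Start sites of all genes also had lower RMLs in siPcif1 cells, so the members were read against them. With ATRA the median change over the 850 start sites was -0.15. Without ATRA it was -0.74. The limma test called 1 of the 5 member start sites without ATRA, the DBH site, where it called 10.7% of all start sites lower. By size of change among all start sites with ATRA, PHOX2A stood at percentile 2.71, RET at 2.82, HAND2 at 16.2, GATA2 at 20.5 and DBH at 25.8, counted from the most negative. Without ATRA GATA3 stood at 11.6, DBH at 23.4, PHOX2A at 25.7, GATA2 at 53.8 and HAND2 at 69.4. In HEK293T, where the median change over 4482 start sites was -0.77, GATA3 stood at 6.51. The members' start sites were thus on the negative side of the median with ATRA in all 5 genes and on both sides of it without ATRA.

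With ATRA the start site also stood less far above the next highest site of its gene in siPcif1 cells, in 5 of 5 genes. The next highest site was picked by its mean in siScram cells and kept for both groups. This ratio was not formed for other genes, so it has no share to be read against. In siPcif1 cells its mean RML was 12.8 times that of the next highest site in PHOX2A, 2.39 times in RET, 2.23 times in HAND2, 1.52 times in GATA2 and 0.887 times in DBH. In siScram cells these ratios were 20.2 in PHOX2A, 6.003 in RET, 3.26 in HAND2, 2.78 in GATA2 and 1.41 in DBH. Without ATRA the order differed between genes: the ratio in siPcif1 and siScram cells was 1.96 and 3.77 in GATA3 and 1.72 and 2.28 in DBH, but 2.16 and 1.98 in HAND2 and 1.29 and 1.04 in GATA2.

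A second measure set the start site against the gene's own coding and 3'UTR sites. It was the start site's log2 value less the median of at least 3 such internal sites in the same library. It is not moved by a scaling of a whole library except through the added percentile. This difference was smaller in siPcif1 than in siScram cells in 9 of 9 comparisons, to which HAND2, GATA2 and DBH each contributed both conditions. With ATRA it was 3.24 ± 0.23 in siPcif1 and 4.24 ± 0.70 in siScram for PHOX2A (SD, n = 3 each), and 2.38 ± 0.63 and 3.67 ± 0.43 for RET in the same order of groups. For GATA2 it was 2.09 ± 0.093 in siPcif1 and 2.73 ± 0.53 in siScram, and for DBH 1.77 ± 0.12 and 2.23 ± 0.11. In these 4 genes siPcif1 and siScram libraries were apart, and in HAND2 they overlapped (2.47 ± 0.38 and 3.05 ± 0.46). The RET start site was listed through siScram only (the authors' DESeq2 p = 0.000288, against 0.141 in siPcif1), which favours such a separation. Among all 189 genes with such a measure with ATRA, 18% had libraries that did not overlap in this direction, and the median difference was -0.30, with 146 of 189 negative.

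Without ATRA the same measure differed by -0.76 in GATA3, -0.59 in DBH, -0.24 in GATA2 and -0.21 in HAND2. Here the start sites of GATA3 and DBH were listed through siScram only. The libraries overlapped in all 4 genes, where 31.1% of 244 genes had libraries that did not overlap. Over the 244 genes the median was -0.41, with 206 negative. The sign in GATA2 and HAND2 rested on 1 library each: it was 0.07 in GATA2 without siScram replicate 1 and 0.03 in HAND2 without siPcif1 replicate 3. In PHOX2A with ATRA the groups overlapped when no percentile was added (difference -0.82). Without siScram replicate 1 the difference with ATRA was -0.61 in PHOX2A, against -0.999 with all libraries, and -0.35 in GATA2, against -0.65, with the libraries still apart in both.

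**Figure D2:**
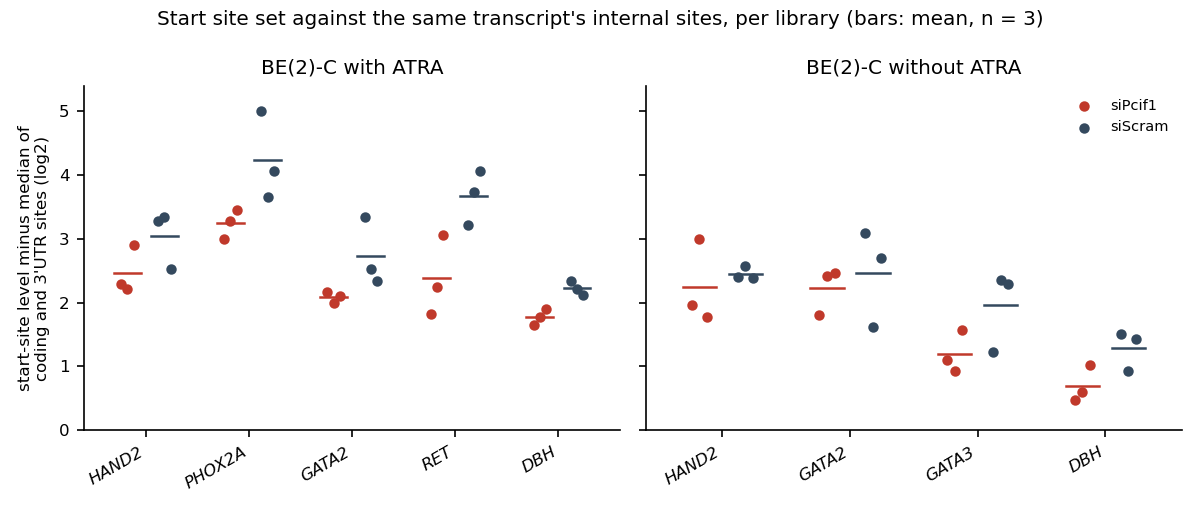
Start site less the median of the gene's coding and 3'UTR sites (log2 units), with siPcif1 left of siScram, points for libraries and bars for means (n = 3). The siPcif1 mean is the lower in all 9 comparisons, and with ATRA the groups are apart in PHOX2A, RET, GATA2 and DBH.

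Methylated positions were spread very unevenly over the members. HAND2 and GATA2 held 70% of the member sites with ATRA and 78.7% of those without ATRA. HAND2 had 84 sites with ATRA and 86 without, and GATA2 84 and 62, where the median gene had 2. By number of sites HAND2 was the 11th of 3924 genes with ATRA and the 9th of 3820 without, and GATA2 the 11th and the 14th. In HAND2 the sites were spread over the whole mRNA, with 30 in the 5'UTR, 35 in coding sequence and 19 in the 3'UTR with ATRA, and 31, 42 and 13 without. In GATA2 the 3'UTR held 50 of 84 sites with ATRA and 45 of 62 without, and the 5'UTR held only the start site.

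The other members had fewer sites and differed between the conditions. RET had 31 sites with ATRA (1 in the 5'UTR, 20 coding and 10 in the 3'UTR) and 3 without (2 coding and 1 in the 3'UTR). DBH had 29 with ATRA, 25 of them in the 3'UTR, and 7 without, 6 of them in the 3'UTR. PHOX2A had 5 with and 1 without. ISL1, a LIM homeodomain factor of sympathetic and motor neurons, went the other way with 6 and 18, nearly all in the 3'UTR, and GATA3 had 1 and 11. A site is listed where the authors called it in at least 1 of the 2 groups, so the number of listed sites depends on expression and depth as well as methylation, and these cannot be told apart here. DRACH motifs stood at 17.1% of member sites with ATRA and 17.6% without, where 22.7% and 20.7% of all sites had one.

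**Figure D3:**
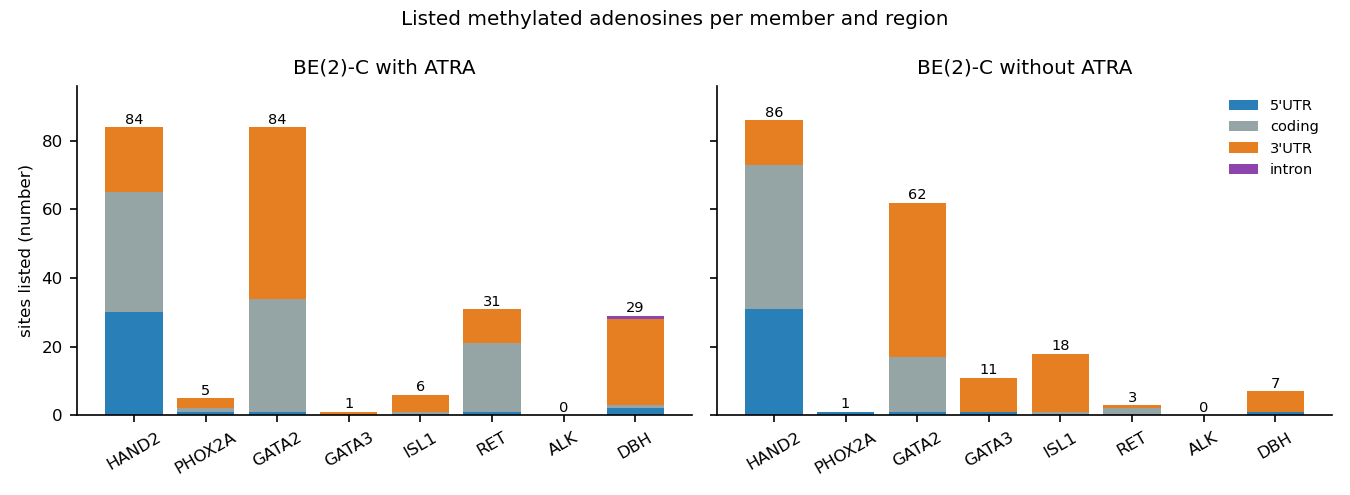
Number of listed sites in each member by table and by region (5'UTR, coding, 3'UTR, intron). HAND2 and GATA2 hold most sites in both BE(2)-C tables, RET and DBH have more with ATRA, and ISL1 and GATA3 have more without.

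In BE(2)-C the member sites were set against all sites of the same table. With ATRA the median change over the 240 member sites was 0.07, with 161 positive and 79 negative, where the median over all sites was 0.12 and 28.4% were negative. No member site passed the limma test in either direction, and neither did any site of the table (0% lower and 0% higher). At an unadjusted p under 0.05, 2 member sites were lower, the start sites of PHOX2A and RET, and 0 were higher, where 0.842% and 2.03% of all sites were. Libraries did not overlap at 3 member sites in the lower direction and at 3 in the higher, where 1.69% and 4.66% of all sites did so. The lower ones were the start sites of PHOX2A and DBH and a HAND2 5'UTR site at chr4:173529944. The higher ones were a HAND2 5'UTR site at chr4:173529984 and 2 GATA2 3'UTR sites at chr3:128480767 and chr3:128480791. The positive sign with ATRA did not hold in 3 settings. Without siScram replicate 1, the library with the lowest median, the median change of the member sites was -0.06, with 91 positive and 149 negative, and that of all sites -0.02. Without siPcif1 replicate 1, the library with the highest median, the member median was -0.01, with 113 positive and 127 negative. After centring each library on its median it was -0.09, and that of all sites was -0.03.

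Without ATRA the median change over the 188 member sites was -0.39, with 181 negative, where the median over all sites was -0.43 and 95.6% were negative. Of them 2 were lower by the limma test, where 3.69% of all sites were, and 0 were higher, where 0.0219% were. At an unadjusted p under 0.05, 37 were lower and 0 were higher, where 26.2% and 0.0788% of all sites were. Libraries did not overlap at 33 member sites in the lower direction, where 27% of all sites did so. The members' shares of called, unadjusted and non-overlapping sites lay below those of the whole table, while their share of negative sites, 96.3%, lay slightly above. After centring each library on its median, 0 member sites passed, their median change was 0.09, and that of all sites was 0.05. Without siScram replicate 1, 110 of the 188 member sites were lower by the limma test (58.5%), against 53.3% of all sites. In that setting 51 of 86 sites passed in HAND2, 30 of 62 in GATA2, 11 of 11 in GATA3, 12 of 18 in ISL1, 5 of 7 in DBH and 0 of 3 in RET.

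Besides the DBH start site, the site called without ATRA was one in the GATA3 3'UTR at chr10:8074311. Its RML was 0.795, 1.31 and 0.829 in siPcif1 and 1.25, 2.34 and 3.20 in siScram libraries. The change was -0.86 (limma adjusted p = 0.0493), and the highest siPcif1 library exceeded the lowest siScram library, again replicate 1. The call was lost after centring (change -0.37, adjusted p = 0.252).

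**Figure D4:**
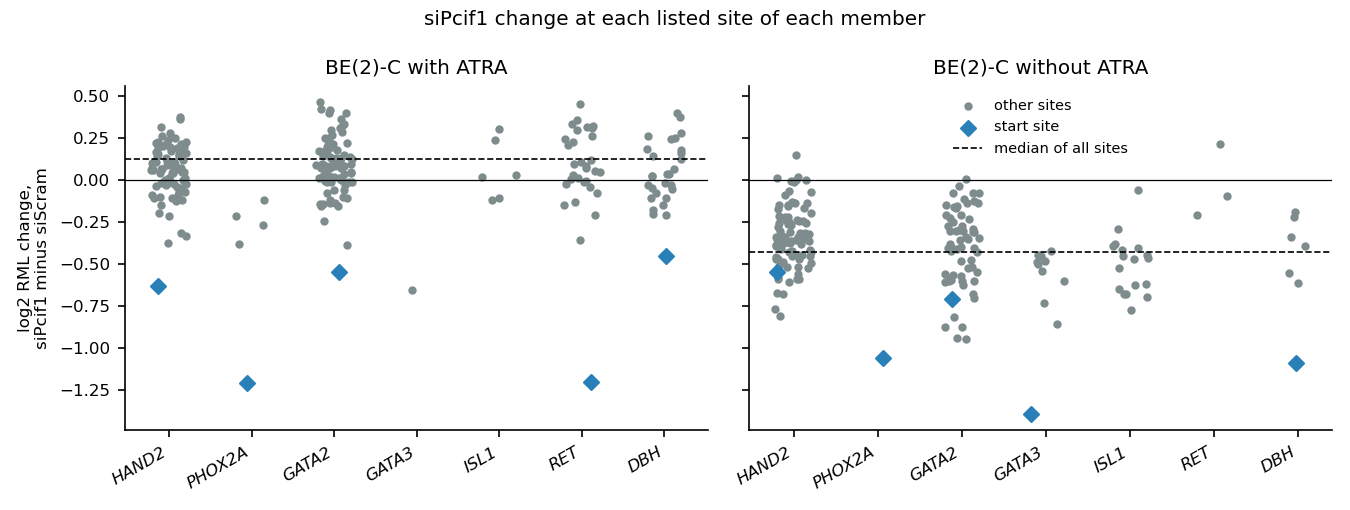
Change at every listed site of each member (siPcif1 minus siScram, log2 units), with ATRA left of without ATRA, start sites as diamonds and the median of all sites dashed. With ATRA the sites of HAND2 and GATA2 lie around medians of 0.07 and 0.09, and without ATRA around -0.35 and -0.37, with the start sites below most of them.

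HAND2 and GATA2 had sites close enough together to follow the change along the transcript. The median gap between neighbouring HAND2 sites was 9 nt with ATRA and 8 nt without. Changes of neighbours at most 10 nt apart correlated with Pearson r of 0.59 over 43 pairs with ATRA and 0.79 over 52 pairs without in HAND2, and 0.81 over 47 pairs and 0.80 over 30 pairs in GATA2. Over all genes r was 0.68 over 4962 pairs with ATRA and 0.77 over 6929 pairs without. The neighbours share their libraries and can share reads, so these values are descriptions and the sites of a stretch are not independent. Distances below are genomic, counted from the nearest RefSeq start, which can be an internal one, and the bounds of the stretches were chosen after their values were seen.

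In the HAND2 5'UTR the change without ATRA differed between adjoining stretches. Between 104 and 232 nt all 12 sites were negative, with a median of -0.59, and the libraries did not overlap at 8 of them, where 27% of all sites without ATRA did so. Between 242 and 335 nt the 12 sites had a median of -0.01, 7 negative and 5 positive. These 5 were the only HAND2 sites without ATRA with a positive change. Between 433 and 500 nt the 5 sites were negative again, with a median of -0.34. With 1 library left out the median of the middle stretch ranged over -0.18 to 0.09, and it lay above those of both neighbours in all 6 of these settings.

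With ATRA the stretch from 104 to 240 nt, again of 12 sites, had a median of 0.19 with all 12 positive. Its median RML was 3.80, 2.96 and 2.53 in siPcif1 and 2.27, 3.53 and 2.57 in siScram libraries, so the groups overlapped widely. The median was 0.03 without siScram replicate 1, with 8 of the 12 positive, and 0.03 without siPcif1 replicate 1, with 9 positive. The HAND2 coding sites had medians of 0.05 with ATRA and -0.36 without, and all 42 were negative without ATRA. The highest coding site, at chr4:173528994, had an RML with ATRA of 8.48, 7.98 and 5.94 in siPcif1 and 5.91, 12.1 and 7.08 in siScram libraries, a change of -0.10.

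In GATA2, distances in the 3'UTR are counted from an internal RefSeq start at chr3:128488530. Between 7607 and 7795 nt from it, 20 sites were listed in each BE(2)-C table. With ATRA all 20 were positive, with a median of 0.28, and without ATRA all 20 were negative, with a median of -0.60. The median RML of this stretch with ATRA was 4.34, 3.46 and 2.74 in siPcif1 and 2.35, 3.79 and 2.23 in siScram libraries. Without ATRA it was 1.34, 1.83 and 2.12 in siPcif1 and 1.60, 3.72 and 3.95 in siScram libraries. Libraries overlapped at most of these sites: they were apart at 2 of 20 in the higher direction with ATRA, where 4.66% of all sites were, and at 6 of 20 in the lower direction without, where 27% were. With 1 library left out the median ranged over 0.14 to 0.42 with ATRA, with 17 to 20 sites positive, and over -0.88 to -0.46 without ATRA, with all 20 negative. The lowest median with ATRA was without siPcif1 replicate 1.

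After centring, the medians of this GATA2 stretch were 0.13 with ATRA and -0.11 without. In the 3'UTR beyond it the medians were 0.10 over 22 sites with ATRA and -0.31 over 17 without. The GATA2 coding sites had medians of 0.02 over 33 sites with ATRA and -0.22 over 16 without.

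**Figure D5:**
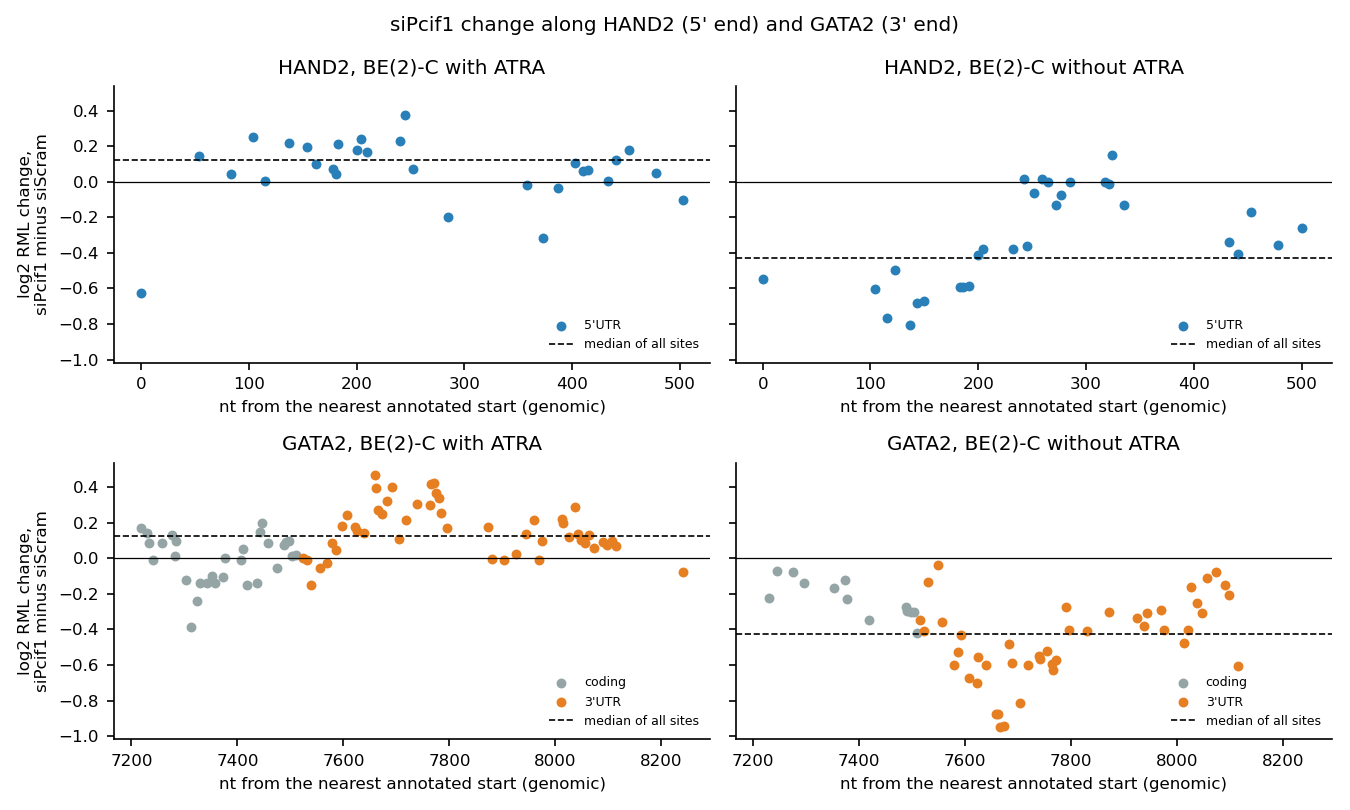
Change at each site (siPcif1 minus siScram, log2 units) against genomic distance from the nearest RefSeq start in nt for the HAND2 5'UTR (upper) and the end of GATA2 (lower), with ATRA left of without ATRA. The dashed line is the median of all sites. Without ATRA the HAND2 5'UTR sites between 242 and 335 nt lie near 0 while those between 104 and 232 nt lie around -0.59, and the GATA2 3'UTR sites between 7607 and 7795 nt hold the lowest values of that 3'UTR.

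The GATA2 site at chr3:128480864, in the 3'UTR with the motif TTACT, had the highest mean RML of the internal sites in both BE(2)-C tables and was also listed in HEK293T. With ATRA its RML was 10.1, 7.65 and 8.25 in siPcif1 and 7.06, 9.20 and 5.20 in siScram libraries, with a change of 0.27. Without ATRA it was 5.27, 6.15 and 6.59 in siPcif1 and 6.81, 14.7 and 17.0 in siScram libraries, a change of -0.95 with no overlap (limma adjusted p = 0.187). In HEK293T it was 3.59, 2.39 and 3.92 in siPcif1 and 5.67, 5.20 and 8.42 in siScram libraries, a change of -0.90 with no overlap (limma adjusted p = 0.416). This internal site, which is no DRACH motif, thus had lower values in siPcif1 with libraries apart in BE(2)-C without ATRA and in HEK293T. Libraries were apart in this direction at 27% and 11.7% of all sites of these tables. After centring, its change was -0.46 without ATRA and -0.78 in HEK293T. The site passed the test in no table.

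RET, DBH and ISL1 had few sites in common between the conditions. The highest internal RET site, at chr10:43128253 in coding sequence with the DRACH motif GGACA, had 4.49, 4.89 and 4.08 in siPcif1 and 5.17, 4.79 and 3.66 in siScram libraries with ATRA, a change of -0.01. The 11 RET coding sites between 23354 and 23488 nt from an internal RefSeq start at chr10:43104765 had a median of 0.30 with ATRA, 10 of them positive. It was 0.07 without siScram replicate 1 and 0.07 without siPcif1 replicate 1. In the DBH 3'UTR the 7 sites between 22531 and 22613 nt were all positive with ATRA, with a median of 0.25. It was 0.06 without siScram replicate 1, with 4 positive, and 0.08 without siPcif1 replicate 1, with 7 positive.

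ISL1 had no listed 5'UTR site. Its highest site with ATRA, at chr5:51393866 in the 3'UTR, had 7.03, 6.27 and 7.53 in siPcif1 and 4.98, 9.11 and 6.74 in siScram libraries, a change of 0.03. Without ATRA the highest, at chr5:51393760, had 1.95, 3.32 and 2.85 in siPcif1 and 3.05, 6.09 and 6.18 in siScram libraries, a change of -0.77 (limma adjusted p = 0.174). The 1 GATA3 site listed with ATRA, in the 3'UTR at chr10:8074333, had 1.94, 3.81 and 3.18 in siPcif1 and 1.69, 8.19 and 8.09 in siScram libraries, a change of -0.66, and the siScram libraries spread over a wider range than the groups differ.

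In HEK293T, 3 members were listed: GATA2 with 15 sites, GATA3 with 3 and ISL1 with 2. Of the 20 positions, 17 were also listed in BE(2)-C. The median change was -0.27, with 13 of 20 negative, where the median of all sites was -0.08 and 57.5% were negative. Without siPcif1 replicate 2 the member median was -0.08, and that of all sites -0.06. No member site passed the limma test (smallest adjusted p = 0.206), nor did any site of the table (0% lower and 0% higher). At an unadjusted p under 0.05, 2 were lower and 1 was higher, where 9.31% and 2.79% of all sites were. Libraries did not overlap at 4 in the lower direction and at 1 in the higher, where 11.7% and 4.96% of all sites did so. The higher one was in the ISL1 3'UTR at chr5:51393869, with 11.8, 5.38 and 5.83 in siPcif1 and 1.19, 2.66 and 3.80 in siScram libraries. The groups did not overlap there, with a change of 1.51 (limma adjusted p = 0.275). In BE(2)-C without ATRA the same base had 2.97, 3.46 and 3.07 in siPcif1 and 2.76, 5.53 and 5.02 in siScram libraries, a change of -0.38 with overlapping groups.

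Whether the siPcif1 change itself differed with ATRA was tested by an interaction term in limma over the 7800 sites listed in both BE(2)-C tables. Over all of them the change with ATRA exceeded that without by a median of 0.54, and 7 sites passed in this direction (0.0897%) and 0 in the other. Of the 109 shared member sites, 105 had a positive difference, with a median of 0.41, and 0 passed the limma test (smallest adjusted p = 0.234). At an unadjusted p under 0.05 there were 11, all higher with ATRA, where 16.7% of all shared sites were. The 4 exceptions were the start sites of PHOX2A, with a difference of -0.15, and HAND2, a further HAND2 5'UTR site at chr4:173529944 and a RET 3'UTR site at chr10:43128293. After centring, the median difference was -0.23 over member sites and -0.10 over all, so the positive sign was not kept in that setting. The cause of the sign was not tested.

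Levels at the shared sites are given per table and were not tested against each other, since each table has its own scale. In siPcif1 cells the 51 shared HAND2 sites had a median RML of 2.68 with ATRA and 1.40 without, and the 46 shared GATA2 sites 2.97 and 1.34. In siScram cells the medians were 2.56 and 1.91 for HAND2, and 2.64 and 2.08 for GATA2. Over all shared sites they were 3.67 and 1.93 in siPcif1 cells and 3.34 and 2.97 in siScram cells, with the value with ATRA first.

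Other genes of the noradrenergic programme were counted in the same fits. Of a list of 27 such genes, 15 had 139 sites with ATRA, with a median change of 0.07 and 0 called, and 1 lower (in KLF13) and 1 higher (in MEIS2) at an unadjusted p under 0.05. Without ATRA 16 genes had 135 sites, with a median of -0.37, 129 of them negative and 2 called lower by limma, 1 in KLF13 and 1 in STMN2, where 3.69% of all sites were. At an unadjusted p under 0.05, 26 of these sites were lower and 1 was higher, where 26.2% and 0.0788% of all sites were. In HEK293T 8 genes had 25 sites, with a median of 0.02, 0 called, and 0 lower and 1 higher (in TBX2) at an unadjusted p under 0.05. The 5 genes of the list with most sites without ATRA were STMN2, CYB561, TBX2, GAP43 and TFAP2B. STMN2, a neuronal microtubule regulator, had 16 sites with ATRA and 27 without, with median changes of 0.05 and -0.30. CYB561, the cytochrome that supplies electrons to dopamine beta-hydroxylase in secretory vesicles, had 17 and 24 sites, with 0.07 and -0.19. TBX2, a T-box factor of the adrenergic circuit, had 27 and 22 sites with 0.07 and -0.51. GAP43, a growth cone protein, had 14 and 13 with 0.06 and -0.37, and TFAP2B, an AP-2 factor of noradrenergic differentiation, had 9 and 9 with 0.35 and -0.65.

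The profile of the members over the 12 BE(2)-C libraries was compared with that of other genes, as the mean log2 value of a gene's sites less the library's median and less the gene's mean in each table. It could be formed for HAND2, GATA2, ISL1 and DBH, the 4 members with at least 5 sites in both tables. Of 763 genes, those closest to the mean of these 4 were VGF with r = 0.95, YWHAQ with 0.92, JUND with 0.89, LONP1 with 0.89 and H1FX with 0.87, where the median gene had r = 0.03. Each member against the mean of the other members, GATA2 had r = 0.72, HAND2 0.68, DBH 0.46 and ISL1 0.18. The 5 genes named were picked as the highest of 763, so their r is no reference for that of the members. These are descriptions over 12 libraries that all genes share.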

How the data were processed

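Per the file headers, the authors deposited a ratio (RML) per site and m6ACE library, a log2 fold change that sets siScram over siPcif1, and p-values, in 1 table per line and condition. Scaling and read depth are described neither there nor in the labels, so no counting interval is given, and no library column was left out (0 unused). The build was hg38, and cutadapt 3.7, bcl2fastq 2.20, STAR, Bowtie2 and DESeq2 were used, per the submitters' processing notes, with roles not described. The authors give a DESeq2 p for siScram and for siPcif1, and at every listed site the lower of these was at most 0.05.

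Values were log2(RML + 5th percentile of the table), 0.857 with ATRA, 0.502 without ATRA and 0.298 in HEK293T, which understates changes of low sites. limma 3.58.1 in R 4.3.3 (lmFit, eBayes with a variance trend) compared 3 siPcif1 with 3 siScram libraries over all sites of a table, with two-sided p adjusted by Benjamini-Hochberg, and a call needed an adjusted p under 0.05. Counts and medians used Python 3.11.15, pandas 2.3.3 and numpy 2.4.6. Sites named per member and table were that with the highest mean RML, the highest in the 5'UTR and those called. Other sites, the start site definition and the stretches were chosen after values were seen. The members and gene lists were chosen with earlier results of these data known. Same-numbered replicates were checked for pairing by the correlation of their deviations (-0.31 to 0.06 with ATRA, 0.00480 to 0.12 without, 0.00429 to 0.02 in HEK293T), which gave no pairing. On simulated data with 200 sites lowered by 2 log2 units, limma recovered 69.5% with ATRA, 81% without and 34% in HEK293T, with 8, 6 and 1 false calls. No member site differed by as much between the groups in the main fits. Recovery at smaller sizes, or with whole libraries shifted, was not tested. Alternatives were other percentiles, centring, a filter, leaving out each library, the deposited p-values, no variance trend and the replicate number as a block.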

Additional observations from a re-analysis of the deposited data

How the results depend on the processing

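The 11 start sites kept their negative direction under all 13 alternatives run for each, but not their size: without ATRA and after centring, -0.54 became -0.06 in HAND2, -0.71 became -0.23 in GATA2 and -1.06 became -0.58 in PHOX2A. None of these alternatives changes how sites were listed, and GATA3, RET and DBH without ATRA were listed through siScram only. Counts of called sites depended on the setting. Over all sites without ATRA 848 were called, and 0 after centring, 2943 with the replicate number as a block, 1 without the variance trend, 1 by the deposited p-values and 42 to 12210 with 1 library left out. Of the member sites without ATRA 2 were called, and 0 after centring, 0 with the median as added value, 0 without the variance trend, 0 by the deposited p-values, 6 with the replicate block and 0 to 110 with 1 library left out, where 110 was without siScram replicate 1. With ATRA 0 sites were called, 15 with the replicate block and 0 to 19 with 1 library left out, and 0 of the member sites in each of these settings. In HEK293T 0 were called, 2 by the deposited p-values and 0 of the member sites in all settings run. The interaction had 7 calls, 0 after centring, 17 with the replicate block and 1 to 254 with 1 library left out (with ATRA, 25 without siPcif1 replicate 3 and 35 without siScram replicate 1), and 0 to 4 at member sites, where the 4 came from omitting siScram replicate 1 (no ATRA). With the replicate block the GATA3 start site without ATRA was called too (limma adjusted p = 0.00924). Named sites that changed sign were RET chr10:43128249 without ATRA (-0.09, but 0.39 after centring, and -0.28 to 0.24 with 1 library left out), ISL1 chr5:51393866 with ATRA (0.03, but -0.13 after centring, and -0.16 to 0.23 with 1 library left out, -0.02 being without siPcif1 replicate 3) and GATA2 chr3:128480791 in HEK293T (-0.21, but -0.47 to 0.25 with 1 library left out). With 1 library left out, the start site less internal sites without ATRA ranged over -0.586 to 0.031 in HAND2 and -0.671 to 0.072 in GATA2. For these changes the cause was not tested. The start site measure's alternatives and the stretches with 1 library left out were chosen after seeing the data. Depth per site is unknown, so low and high RMLs could not be weighted by precision.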
